A study of Drosophila melanogaster with 23 samples.

Results

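Accessible chromatin was compared between central trunk nuclei and posterior trunk nuclei of Drosophila melanogaster blastoderm embryos, using the 4 peak lists of domains D4 and D5 (central) and the 4 peak lists of domains D6 and D7 (posterior). These are 8 of the 23 samples of the series, of which 22 had a peak list analysed here. Peaks of the 8 lists on X, 2L, 2R, 3L, 3R and 4 were joined into regions wherever at least 1 bp was shared. This gave 23268 regions, and a list with a peak in a region was taken to have found it. The libraries were made by ATAC-seq, in which a transposase inserts sequencing adapters into open chromatin, from stage-5 embryos aged 2 h 50 min to 3 h 10 min at 25 °C. In each transgenic strain a nuclear envelope tag, UNC84-3xFLAG, was driven by an enhancer of a patterning gene in an otherwise wild-type background, and tagged nuclei were pulled down with an anti-FLAG antibody. The D4 strains carried the Dichaete central enhancer with the Hs43 promoter, and the D5 strains the Kruppel central enhancer with the same promoter. The D6 strains carried the even-skipped stripe 5 enhancer with the DSCP promoter, and the D7 strains the giant posterior enhancer with Hs43. The 2 lists of each domain came from 2 independent strains, line A and line B, so a difference between the sides rests on 2 domains a side, and p-values measure the spread between libraries of these strains.

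At this stage the trunk is divided by a cascade of transcription factors. Maternal gradients set broad domains of gap genes, gap proteins position the stripes of pair-rule genes, pair-rule proteins start the segment polarity genes, and homeotic genes of the Antennapedia and bithorax complexes are switched on in domains whose order along the chromosome follows the order along the body. Their cis-regulatory regions are spread over long stretches of DNA, and many are open in some positions of the embryo and closed in others, where repressors such as the Polycomb group proteins act.

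The central lists were longer than the posterior lists. They held 21284 and 19184 peaks in D4 and 21183 and 19551 peaks in D5, against 16830 and 17898 peaks in D6 and 18529 and 17970 peaks in D7. The means were 20300.5 ± 1088 peaks in central lists and 17806.75 ± 710 peaks in posterior lists (SD, n = 4 each), without overlap of the sides. The exact permutation test gave p = 0.0286, two-sided, which is the smallest p that 4 against 4 lists can give. The peaks covered 13.7 ± 0.684 Mb in central lists and 11.6 ± 1.00 Mb in posterior lists (exact permutation p = 0.0286), and the difference in list length was 1967.5 peaks among the 4 lists whose peaks were named in one style. Read depth was unknown, and its part in list length was not tested. Presence was therefore compared in the full lists and again after every list was reduced to its 16830 widest peaks, the length of the shortest list.

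**Figure D1:**
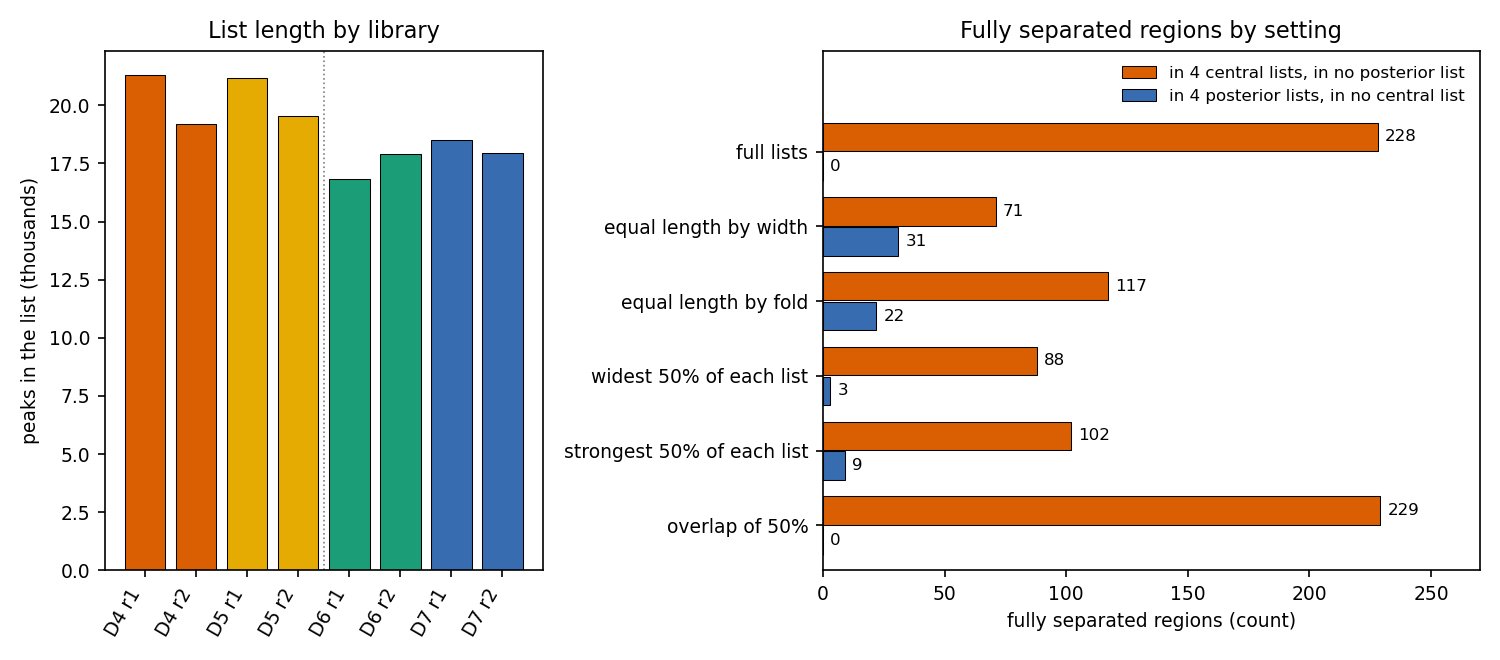
Left, peaks in each list for replicate 1 (r1) and replicate 2 (r2) of D4, D5, D6 and D7. Right, the number of regions found in all 4 lists of one side and in no list of the other, by setting. All 4 central lists are longer than all 4 posterior lists, and the 228 against 0 separated regions of the full lists become 71 against 31 when lists are cut to equal length by width.

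Of the 23268 regions, 12038 (51.7%) were found in all 8 lists, and 6557, the regions tested, were present in 2 to 6 lists. Among these 6557, 228 regions (3.48%) were found in all 4 central lists and in no posterior list, and 0 regions (0%) in all 4 posterior lists and in no central list. With lists of equal length, 71 regions (1.33% of 5337) were found in central lists only and 31 regions (0.581%) in posterior lists only. Of the 71, 46 were also among the 228. Each of the 31 had a peak in at least 1 full central list, and 10 of them had one in all 4. A two-sided Fisher's exact test per region called 0 of the 6557 (0%) in full lists and 0 of the 5337 (0%) at equal length after Benjamini-Hochberg adjustment. Full separation gives p = 0.0286 in that exact test, which 228 regions reached before adjustment. The smallest adjusted p was 0.751, and a call required 3747 separated regions. Leaving out a list relaxes the rule, and the count in central lists only was then 407 without D4 replicate 2, 347 without D5 replicate 1, 352 without D5 replicate 2, 352 without D6 replicate 2 and 441 without D7 replicate 1. At equal length the 71 likewise became 111 to 124 without each of the same 5 lists. The 31 became 47 to 62 without D4 replicate 1, D4 replicate 2, D5 replicate 2, D6 replicate 1, D6 replicate 2 or D7 replicate 1.

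The strength of a region is given as a percentile, the rank of the authors' fold enrichment among the regions found in the same list, where 0 is weakest and 100 strongest. The 228 regions had a median width of 311 bp, near the 328 bp of all 6557 tested regions. Their median percentile was 23.3, with a range from 1.15 to 56.4. Whole-embryo lists were made without the pull-down, for domains D1, D4, D5 and D7 and not for D2, D3 or D6. They thus include both central domains but only D7 of the posterior ones. Of the 228 regions, 48 were in all 8 whole-embryo lists and 14 in none. In the 6 lists of anterior nuclei (D1, D2, D3), 18 were found in all and 36 in none. Over the 6557 regions tested, 1319 were in all whole-embryo lists and 612 in none, and 1088 were in no anterior list. No more than 10 of the 228 regions were in none of these other 14 lists.

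The strongest of the 228 lay on X:7719480-7719738, at percentiles 38.7 and 55.5 in D4 and 57.4 and 60.5 in D5, with no peak in any posterior list. It was present in 5 of 6 anterior and 8 of 8 whole-embryo lists. The next, X:9995758-9996059, stood at 62.1 and 47.9 in D4 and 49.5 and 77.5 in D5, and the third lay in the Kruppel window described below. The 10 strongest had median percentiles between 49.7 and 56.4. Among the 31 regions of equal-length posterior lists, the strongest was 3L:12089680-12089969, at percentiles 52.4 and 49.5 in D6 and 49.1 and 60.6 in D7, and it was also in 5 of 6 anterior and 8 of 8 whole-embryo lists. Of the 31, 20 were in all whole-embryo lists and 9 in all anterior lists, against 2025 and 1021 of all 5337 regions tested at equal length.

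The 4 domains did not contribute equally. In full lists, 1666 regions were in both D4 lists and neither D6 list, against 28 in the opposite direction. The counts were 1038 against 118 for D4 and D7, 1543 against 64 for D5 and D6, and 1087 against 282 for D5 and D7. With equal lengths they were 744 against 190 for D4 and D6, 531 against 352 for D4 and D7, 562 against 223 for D5 and D6, and 505 against 458 for D5 and D7. The domains of one side also differed from each other, with 425 against 318 regions for D4 and D5, and 145 against 674 for D6 and D7. Between D6 and D7 the imbalance remained at equal length, 209 against 514 regions.

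Of the 228 central-only regions, 17 lay in 1 stretch, and the others were spread over all arms. A single stretch of 200 kb or less held 5 or more of them, 3R:2731820-2867159 in dm3 coordinates, which overlaps the locus of Antennapedia (Antp), the homeotic gene of the thoracic segments. Of 89 regions in the stretch, the central lists found 75 and 70 (D4) and 70 and 80 (D5), against 41 and 47 (D6) and 45 and 39 (D7) in posterior lists. The sides did not overlap. In the stretch 17 of 36 tested regions were fully separated. The other 72 regions, which the rule did not select, were found 53 to 63 times in central lists and 39 to 47 times in posterior lists. Anterior lists found 30 to 47 of the 89 and whole-embryo lists 44 to 52. The regions were defined from the central and posterior lists in a stretch chosen for central-only regions, so these counts are given without comparison.

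The 17 separated regions of the Antp stretch were 219 to 917 bp wide. Their median percentile was 13.9 and 8.61 in the D4 lists and 19.6 and 24.3 in the D5 lists, so most were weak peaks, and the authors' median fold enrichment was between 1.60 and 1.93. Of the 17, 11 were in no anterior list, 7 in no whole-embryo list and 6 in neither. Those 6 were most of the 10 central-only regions of the whole genome that no other list held. One of the 6, 3R:2783558-2783776, stood at percentiles 29.0 and 26.998 in D4 and 36.3 and 25.9 in D5. Another, 3R:2806987-2807268, stood at 29.02 and 38.9 in D4 and 44.7 and 29.8 in D5, so both were of similar strength in the 2 central domains. At equal list length 10 regions of the stretch were separated, and its central lists held 59, 61, 60 and 71 of 79 regions, against 41, 44, 43 and 39 in posterior lists.

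**Figure D2:**
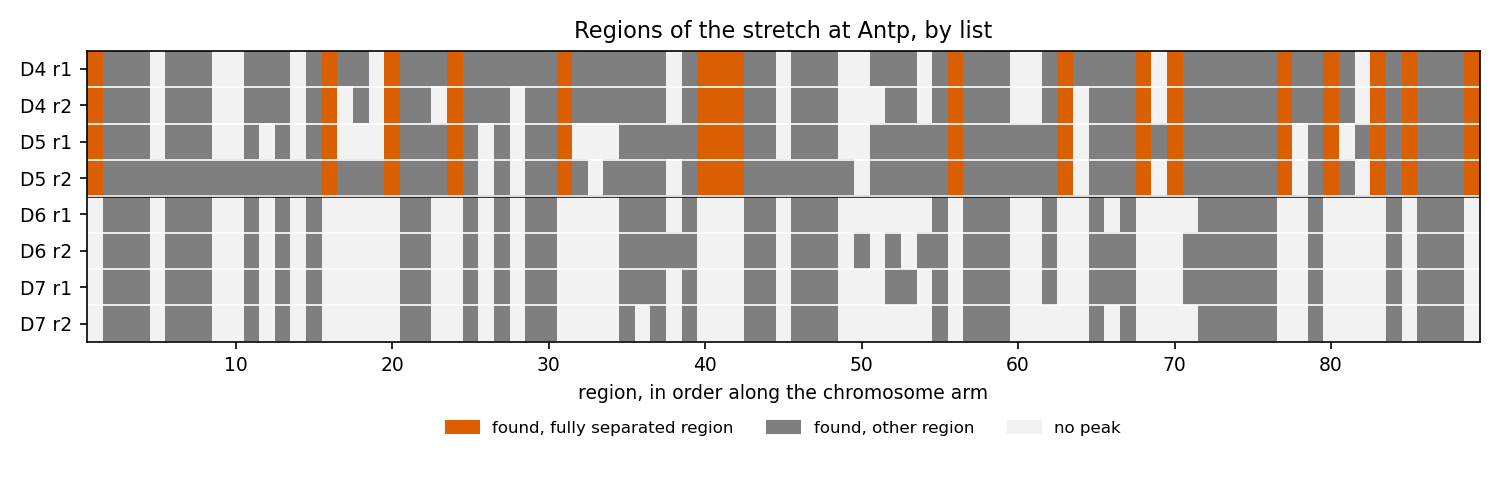
Presence of the 89 regions of the stretch at Antp in each list, with central lists (D4, D5) above the line and posterior lists (D6, D7) below it. Columns are regions in order along 3R and are not to scale, orange and grey cells mark a peak, and the 17 orange columns are the regions found in all 4 central lists and in no posterior list.

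Loci of 25 patterning genes or gene pairs were then examined in windows placed from general knowledge of the dm3 map, because no dm3 annotation was used here. Their limits are approximate. For each list the share of the window's regions that had a peak was taken. Over all 23268 regions this share was 79.0% ± 4.31 in central lists and 66.1% ± 4.76 in posterior lists (SD, n = 4 each), a difference of 13.0 percentage points, and 3.84 points at equal length. Of the 25 windows 20 were higher in central lists and 5 lower, with a median difference of 5.36 points. At equal length 10 were lower, prd and en-inv had equal means on the 2 sides, and the rest were higher, with a median difference of 1.32 points. In 2 windows (8%) all central lists lay above all posterior lists, and in 0 windows (0%) all lay below. The exact permutation test, adjusted over the 25 windows, called 0 of them (0%), both in full lists and at equal length. The smallest adjusted p was 0.357, and 2 windows had an unadjusted exact p of 0.0286, the smallest possible. A call after adjustment needed many more windows at that p, so no window could have been called on its own.

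The windows of the homeotic genes moved in different directions. The Antp window had the largest difference in full lists. The window overlaps the stretch of central-only regions described above and holds 14 fully separated regions, so it is not a separate result. Of its 91 regions central lists found 77 and 72 (D4) and 68 and 81 (D5), against 43 and 50 (D6) and 47 and 41 (D7) in posterior lists. All central lists were higher, with means of 81.9% ± 6.25 and 49.7% ± 4.43 (SD, n = 4 each). The difference of 32.1 points had an exact permutation p of 0.0286 and an adjusted p of 0.357, and it stayed between 29.8 and 34.5 points with each list left out. At equal length it was 24.1 points, still without overlap, the only such window of 25 (4%). Both central domains had the same mean, 81.9%, while D6 averaged 51.1% and D7 48.4%.

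The neighbouring window of Scr and ftz, a homeotic gene of the posterior head and first thoracic segment and a pair-rule gene lying beside it, was the other window without overlap. It had 34, 32, 29 and 27 of 36 regions in central lists, against 23, 26, 25 and 25 in posterior lists. The difference was 16.0 points in full lists (exact permutation p = 0.0286, adjusted p = 0.357), close to that over all regions, and at equal length it was 9.17 points with overlapping sides. The window of Ubx and its bxd control region, which specify the posterior thorax and first abdominal segment, had 69, 68, 68 and 72 of 84 regions in central lists, against 46 and 73 in D6 and 60 and 54 in D7. The central lists were nearly equal there, whereas the 2 D6 lists were far apart, and D6 replicate 2 was above all the central ones. The difference was 13.1 points (exact permutation p = 0.143) and ranged from 8.23 to 18.948 points with each list left out. At equal length it was 4.93 points.

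The abd-A and Abd-B windows, which hold the genes of the middle and posterior abdominal segments with their iab regulatory regions, were the 2 windows with the lowest central share relative to the posterior one in full lists. For abd-A, central lists found 39 and 36 (D4) and 33 and 30 (D5) of 53 regions, against 29 and 47 (D6) and 47 and 45 (D7) in posterior lists. The other 3 posterior lists lay above every central list, while D6 replicate 1, the shortest list, lay below all of them. The difference was -14.15 points (exact permutation p = 0.171, adjusted p = 0.536), -22.3 points without D6 replicate 1 and -24.5 points at equal length, where the direction over all regions was +3.84. For Abd-B, central lists found 30 and 28 (D4) and 24 and 23 (D5) of 45 regions, against 23 and 26 (D6) and 41 and 35 (D7). Here only D7 lay above the central lists. The difference was -11.1 points (exact permutation p = 0.371), and it was -3.89 points without D7 replicate 1.

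In full lists, 25 of 23268 regions were in at least 3 posterior lists and in no central list, and 3 of these lay in the abd-A and Abd-B windows. The abd-A regions were 3R:12625696-12626010, at percentiles 16.8 in D6 replicate 2 and 17.7 and 22.2 in D7, and 3R:12667685-12668165, at 10.5, 0.0779 and 0.531 in the same lists. The Abd-B region was 3R:12705509-12705898, at 4.63 in D6 replicate 2 and 11.1 and 16.5 in D7. None of the 3 was in an anterior or whole-embryo list, and D6 replicate 1 lacked all of them. Of 45 Abd-B regions, 13 were found in D7 lists only, 3 of these in both, while 0 were found only in D4, only in D5 or only in D6. Over all 23268 regions 527 were found in D7 lists only, 61 of these in both. At equal length 9 of 38 Abd-B regions were found in D7 lists only, 1 of these in both, and 1 in a D6 list only. At equal length, 6 of 49 abd-A regions (12.2%) were in at least 3 posterior lists and no central list, against 0.582% of all regions, and 0 of 49 were the other way round. In full lists this held for 2 of 53 abd-A regions (3.77%), against 0.107% of all regions. The cut removed more peaks from the central lists, which were longer.

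**Figure D3:**
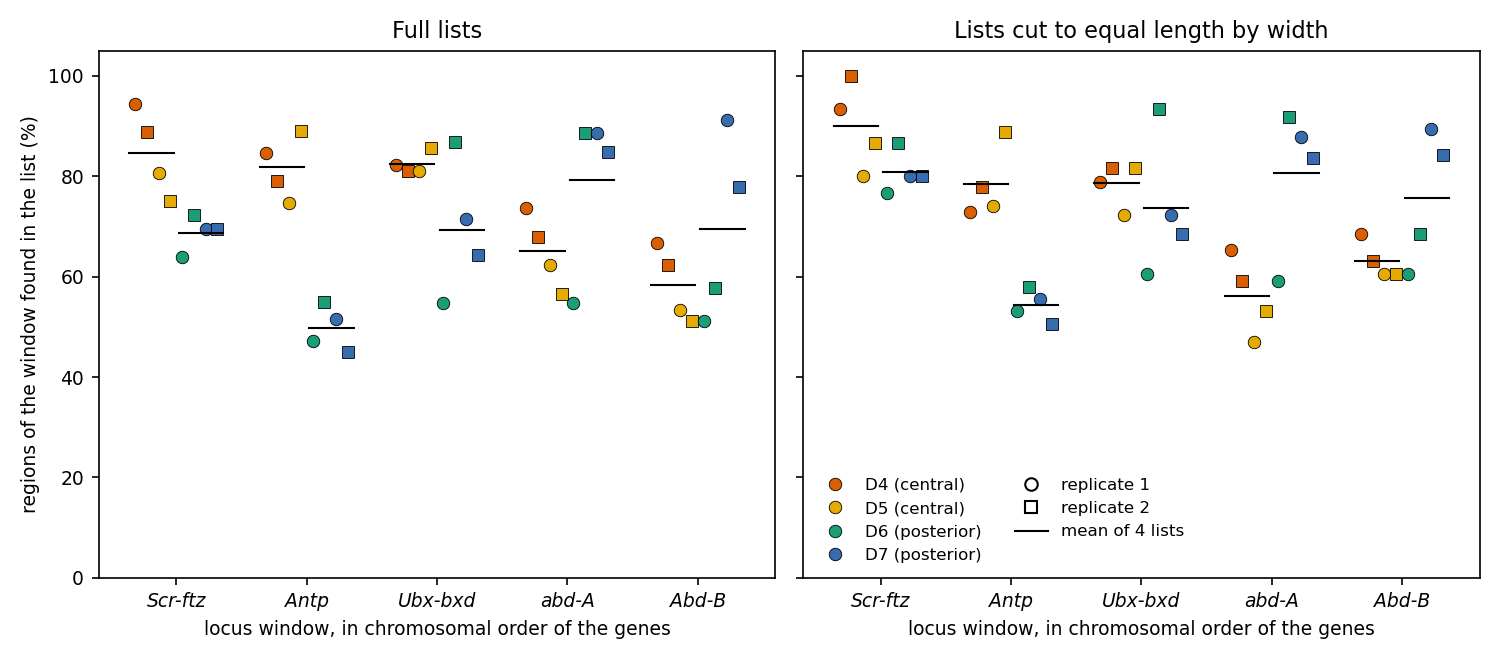
Share of the regions of each homeotic window that had a peak in each list (%), in full lists (left) and lists cut to equal length (right), with central lists (orange D4, yellow D5) left of posterior lists (green D6, blue D7) and a line at the mean of each 4 lists. In the Antp window all central lists lie above all posterior lists, and in the abd-A window 3 of the 4 posterior lists lie above all central lists.

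Gap genes encode the factors that first divide the trunk, and the window of Kruppel (Kr), the gap gene of the central trunk and the source of the D5 enhancer, differed most among them. Of its 19 regions central lists found 14 and 13 (D4) and 12 and 17 (D5), against 8 and 8 (D6) and 14 and 10 (D7) in posterior lists. The difference was 21.05 points (exact permutation p = 0.114), with D7 replicate 1 inside the central range, and 18.3 points at equal length. The window held 2 fully separated regions in full lists and 0 at equal length. The region 2R:21103324-21103817 stood at percentiles 48.5 and 16.3 in D4 and 65.9 and 60.5 in D5, and 2R:21117029-21117455 at 17.1 and 21.3 in D4 and 53.3 and 50.8 in D5. Both were stronger in D5 than in D4 and absent from all 4 posterior lists. The first was also in all 8 whole-embryo lists and 1 anterior list, and the second in 3 whole-embryo lists and 1 anterior list.

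The loci of the enhancers that drove the tag were also examined. The single regions named there were chosen after their values were seen, so they are no check of the labels. The even-skipped (eve) window, whose gene marks the odd-numbered parasegments, held a region at 2R:5873335-5874960 that stood at percentiles 90.0 and 94.9 in the 2 D6 lists. It stood at 26.72 and 50.6 in D4, 41.0 and 56.9 in D5, and 29.9 and 47.1 in D7. In the window of giant (gt), a gap gene active in the anterior and the posterior trunk, the region X:2323794-2326350 stood at 74.6 and 63.7 in D4 and 75.2 and 45.0 in D5, against 76.4 and 92.5 in D6 and 99.1 and 97.5 in D7. In the Kr window 2R:21110080-21111575 stood at 99.9 in D5 replicate 1 and 50.0 in D5 replicate 2, against 76.6 to 91.7 in the other 6 lists. These 3 regions held lettered peaks, whose values were not alike between lists (described with the ranks below), and each strain also carried a transgenic copy of its driving enhancer, whose part in these values was not tested. The Dichaete (D) gene encodes a Sox factor of the trunk. In its window central lists found 15, 13, 13 and 12 of 19 regions, against 11, 13, 12 and 14 in posterior lists. The sides overlapped there. Of the 6 regions of the D window found in all 8 lists without a lettered peak, D4 was above the posterior mean in 3.

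In the other gap windows the sides overlapped. For gt, 15, 14, 15 and 16 of 18 regions were found in central lists, against 15, 15, 16 and 15 in posterior lists, a difference of -1.39 points that was -8.82 points at equal length. The windows of hunchback (hb), knirps (kni), its relative knrl, tailless (tll), which acts at the embryo's ends, and the POU genes nub and pdm2 had differences between 2.08 and 7.69 points, below that over all regions. At equal length the direction turned for hb (-2.78 points), knrl (-8.33 points) and tll (-4.55 points). The window of caudal (cad), a posterior homeobox gene that activates abdominal gap and pair-rule genes, had 9, 8, 12 and 7 of 17 regions in central lists, against 7 and 8 in D6 and 10 and 14 in D7. Its difference of -4.41 points became 3.92 points without D7 replicate 2.

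Of the pair-rule loci, runt (run) and hairy (h) had the largest differences. The run window had 20, 19, 15 and 18 of 23 regions in central lists, against 13, 14, 15 and 14 in posterior lists, a difference of 17.4 points (exact permutation p = 0.0571) that was 9.52 points at equal length (exact permutation p = 0.143). It held 2 fully separated regions. X:20548164-20548908 stood at percentiles 40.4 and 28.3 in D4 and 65.1 and 59.2 in D5, and X:20556041-20556780 at 39.3 and 45.2 in D4 and 64.6 and 49.4 in D5. Both were in no anterior list and in 7 and 8 of the 8 whole-embryo lists, and at equal length they were the 2 strongest of the 71 central-only regions. The h window had 10, 9, 9 and 12 of 12 regions in central lists, against 6, 7, 9 and 8 in posterior lists, a difference of 20.83 points that was 4.55 points at equal length.

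The eve window had 14, 13, 17 and 12 of 17 regions in central lists, against 11, 11, 12 and 12 in posterior lists, and the windows of odd, slp and prd differed by 6.25 to 8.93 points. The segment polarity windows, of the signals wg and hh and of the homeobox genes en and inv, which hold segment boundaries, differed by 2.38 to 7.81 points, and their sides overlapped. A pair of dorsoventral loci was included as genes patterned across the other axis. For sna, the mesoderm repressor, all 10 regions were found in 3 central lists and 9 in D4 replicate 2, against 10 in every posterior list. For dpp, a dorsal signal, 11, 10, 7 and 10 of 12 regions were found in central lists, against 7, 9, 10 and 10 in posterior lists. Its difference was 4.17 points in full lists and -15.9 points at equal length.

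Presence cannot show a change of strength in a region that every list holds, so the ranks of the authors' fold enrichment were compared with limma. For the 12038 regions found in all 8 lists, 0 were called higher (0%) and 0 lower (0%) in central lists at an adjusted p under 0.05. The smallest adjusted p was 0.611, and 511 regions had an unadjusted p under 0.05, of which 154 were higher and 357 lower. The ranks depended on the kind of list. In 5 of the 8 lists 29.7% to 32.7% of the peaks had a letter after the peak number, and the values of such lettered peaks appear to be those of a late summit. The lists of D4 replicate 1, D5 replicate 1 and D7 replicate 1 held 0 lettered peaks. Ranks correlated at 0.743 to 0.953 between lists of one kind and at 0.640 to 0.762 between lists of different kinds. Leaving out D7 replicate 1 gave 9 calls, all higher in central lists, and leaving out any other list gave 0.

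Among the 5283 regions with no lettered peak in any list the kinds of list agreed more closely, with correlations of 0.856 to 0.948 between kinds. Here 7 regions (0.133%) ranked higher and 29 regions (0.549%) lower in central lists at an adjusted p under 0.05 (limma, Benjamini-Hochberg). The sides did not overlap in any of the 36, nor in 6.59% of the 5283 regions, of which 205 had the central lists below. The number of calls rested on the libraries: it was 0 without D5 replicate 1, 1 without D5 replicate 2, 0 without D7 replicate 1 and 0 without D7 replicate 2, and 26 to 40 without each of the others. With the kind of list as a covariate 14 of the 36 were called. The 36 differences kept their sign in every one of these fits. Leaving out a list could not have changed a sign, because the sides did not overlap, so the signs are no check of the calls.

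The 7 regions higher in central lists included 1 in the Antp window, 1 beside it and 1 in the Ubx window. The Antp and Ubx windows each held 19 ranked regions. In ranks among the 5283 regions, 3R:2803020-2803468 in the Antp window stood at percentiles 15.2 and 21.05 in D4 and 23.1 and 20.3 in D5, against 0.795 and 2.40 in D6 and 1.27 and 4.68 in D7. It was among the weakest regions of every posterior list and moderately weak in central lists, a difference of 17.6 percentile points (SE 3.01, limma adjusted p = 0.0319). The region 3R:2857135-2857800, in the stretch of central-only regions beyond the Antp window, stood at 77.8, 82.7, 87.6 and 83.9 in central lists, against 65.3, 58.5, 54.0 and 66.2 in posterior lists (difference 21.99, SE 3.58, limma adjusted p = 0.0286). The Ubx region 3R:12509295-12509749 stood at 54.3 and 53.9 in D4 and 73.4 and 64.5 in D5, against 30.9 and 21.6 in D6 and 30.9 and 26.4 in D7 (difference 34.1, SE 6.37, limma adjusted p = 0.0481). The Ubx call was lost with each of the 8 lists left out (limma adjusted p = 0.0588 to 0.167), with list kind as a covariate (0.0984) and with a replicate block (0.0626). The call at 3R:2803020-2803468 was lost without each list except D4 replicate 1 (limma adjusted p up to 0.122), with list kind (0.0584) and with a replicate block (0.0532). The call at 3R:2857135-2857800 was lost without D4 replicate 2, D5 replicate 1, D5 replicate 2, D7 replicate 1 or D7 replicate 2 (limma adjusted p up to 0.122).

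The other 4 regions higher in central lists were outside the windows. The one with the smallest p was 2R:17548584-17549374, at 20.9, 21.8, 24.7 and 26.6 in central lists, against 1.02, 3.24, 0.7005 and 5.66 in posterior lists. The region 2L:3006811-3007469 was strong throughout, at 93.2, 92.9, 96.1 and 93.0 in central lists, against 86.7, 87.6, 87.5 and 82.7 in posterior lists. The remaining 2, on 2L, differed by 22.3 and 24.0 points.

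Of the 29 regions lower in central lists, 3 lay in windows of the pair-rule genes prd and slp and of the terminal gap gene tll. The prd region 2L:12080855-12081823 stood at 87.4 and 90.0 in D4 and 87.9 and 82.6 in D5, against 97.7 and 96.7 in D6 and 95.002 and 97.9 in D7 (difference -9.84, SE 1.41, limma adjusted p = 0.0177). It was among the strongest regions of every posterior list. The slp region 2L:3833681-3834512 stood at 24.5 and 24.0 in D4 and 11.3 and 16.9 in D5, against 79.2 and 37.1 in D6 and 79.4 and 83.2 in D7 (difference -50.6, SE 9.81, limma adjusted p = 0.0481). The tll region 3R:26671137-26671549 stood at 66.8, 50.3, 58.1 and 52.6 in central lists, against 80.3, 82.1, 77.7 and 74.6 in posterior lists (difference -21.7, SE 4.22, limma adjusted p = 0.0481). The called region was 1 of 9 ranked regions in the slp window, 1 of 5 in the prd window and 1 of 3 in the tll window. Of all 23268 regions, ranked or not, 662 lay in a window.

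Outside the windows, several of the regions with the smallest p were among the weakest of the central lists. The region 3R:1548608-1549428 stood at 6.32, 6.74, 0.511 and 0.909 in central lists, against 33.9, 51.0, 36.1 and 39.9 in posterior lists. The region 2L:13886996-13887371 stood at 17.7 and 22.04 in D4 and 7.73 and 6.34 in D5, against 51.0, 58.9, 73.6 and 69.1 in posterior lists. Its difference was -49.7 points, and the widest of all 29 was -55.1 points at 3R:18703222-18703925. That region was nearly the weakest of the D5 lists, at 0.473 and 0.3597, and stood at 16.7 and 16.3 in D4. In posterior lists it stood at 43.8 and 56.9 in D6 and 74.0 and 79.5 in D7. The 29 differences ranged from -55.1 to -7.54 points.

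**Figure D4:**
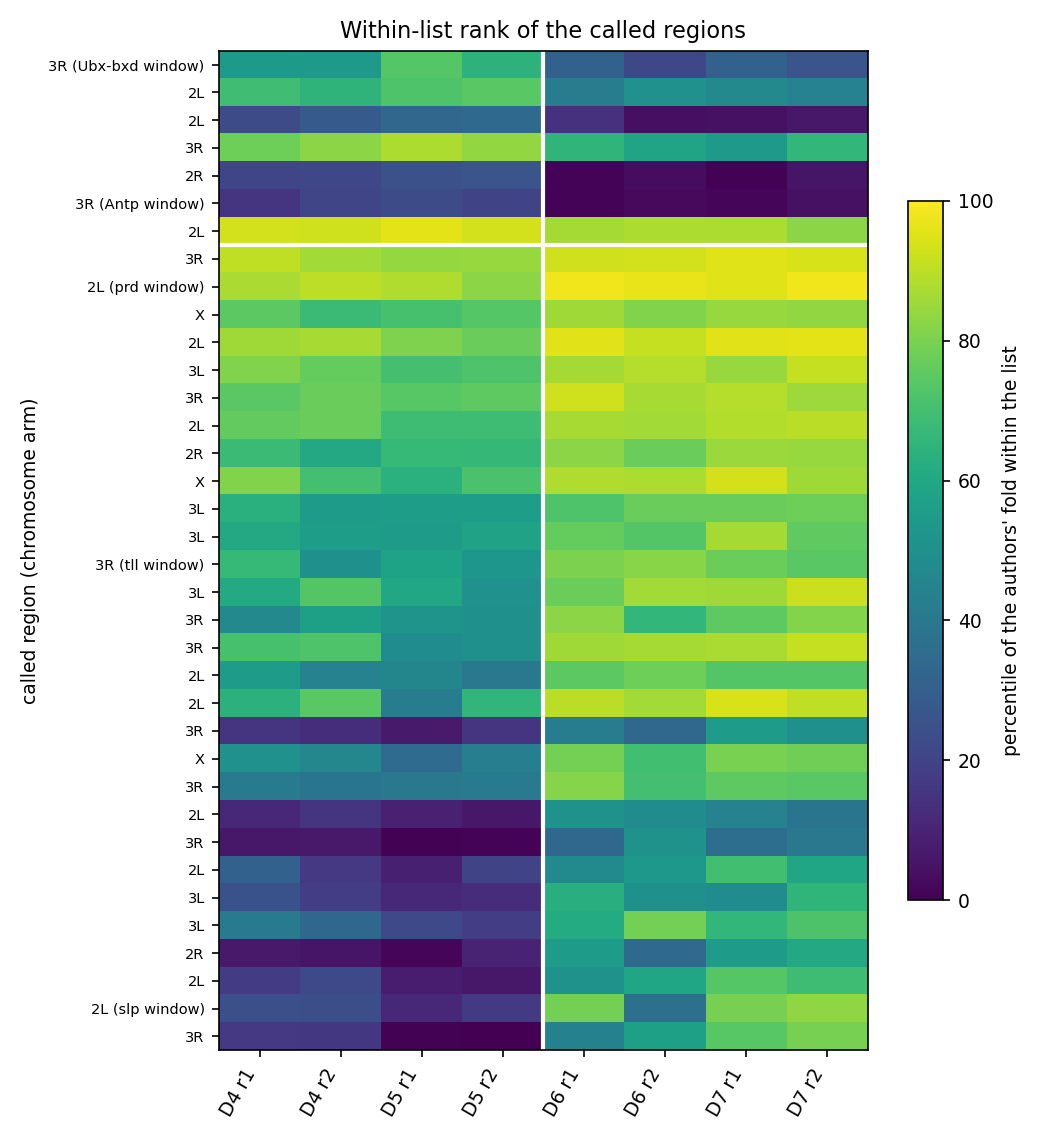
Percentile of the authors' fold enrichment (colour, 0 to 100) of the 36 called regions in each list, ranked among the 5283 regions without a lettered peak, with central lists left of the white line and posterior lists right of it. The 7 rows above the horizontal line are higher and the 29 rows below it lower in central lists, each without overlap of the sides.

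In the anterior and whole-embryo lists, which the comparison did not use, ranks were available for the called regions that all 22 lists held without a lettered peak, 26 of the 29 lower and 5 of the 7 higher ones. The anterior median lay nearer the posterior than the central mean in 25 of the 26 and 4 of the 5, and the whole-embryo median lay between the means of the 2 sides in 22 of the 26 and 4 of the 5. Over all 3966 regions that the 22 lists held without a lettered peak, these shares were 52.5% and 27.9%. The called regions were chosen for a gap between the sides, so the counts are a description only. Ranked among the 3966 regions that all 22 lists held without a lettered peak, 3R:3359228-3359716 stood at 32.9 to 35.6 in central lists and 66.6 to 79.5 in posterior lists, with an anterior median of 76.2 and a whole-embryo median of 79.8. The slp region had an anterior median of 83.8 and a whole-embryo median of 72.98 on the same scale, against 7.39 to 18.7 in central lists.

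The homeotic windows differed in the direction of their ranks. Of 19 ranked regions in the Antp window 17 were higher in central lists, with a median difference of 5.81 points, and the sides did not overlap in 8, with the central lists above in 7 of these. In the abd-A window 12 of 12 were lower, with a median of -8.09 points and 4 without overlap, and in the Abd-B window 12 of 12 were lower, with a median of -4.18 points and 3 without overlap. The Ubx window was mixed, with 7 of 19 higher, and so was the Scr-ftz window, with 6 of 11 higher. Over all 5283 regions 53.6% were higher, and the median difference was 0.298 points. Both posterior domains took part: D6 was above the central mean in 10 of 12 abd-A and 11 of 12 Abd-B regions, and D7 in 12 of 12 of each. The D4 and D5 means were below the posterior mean in all of these 24 regions.

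Within the abdominal windows no single region was called, and the largest differences had adjusted p above the threshold. The abd-A region 3R:12690345-12691301 stood at 79.3 and 77.5 in D4 and 49.3 and 51.1 in D5, against 90.7 and 96.1 in D6 and 98.3 and 96.4 in D7 (difference -31.1, SE 6.33, limma adjusted p = 0.0541). The D5 lists were lowest there, then the D4 lists, and the D6 and D7 lists were highest. The Abd-B region 3R:12716885-12718631 stood at 59.8 and 67.9 in D4 and 28.0 and 26.68 in D5, against 77.8 and 69.95 in D6 and 94.2 and 95.1 in D7 (difference -38.7, SE 9.71, limma adjusted p = 0.102). In the Antp window the largest difference not called was at 3R:2756083-2756619, with 48.9, 47.5, 55.9 and 52.7 in central lists, against 7.96, 35.8, 16.6 and 16.5 in posterior lists (difference 32.0, SE 6.67, limma adjusted p = 0.0580).

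**Figure D5:**
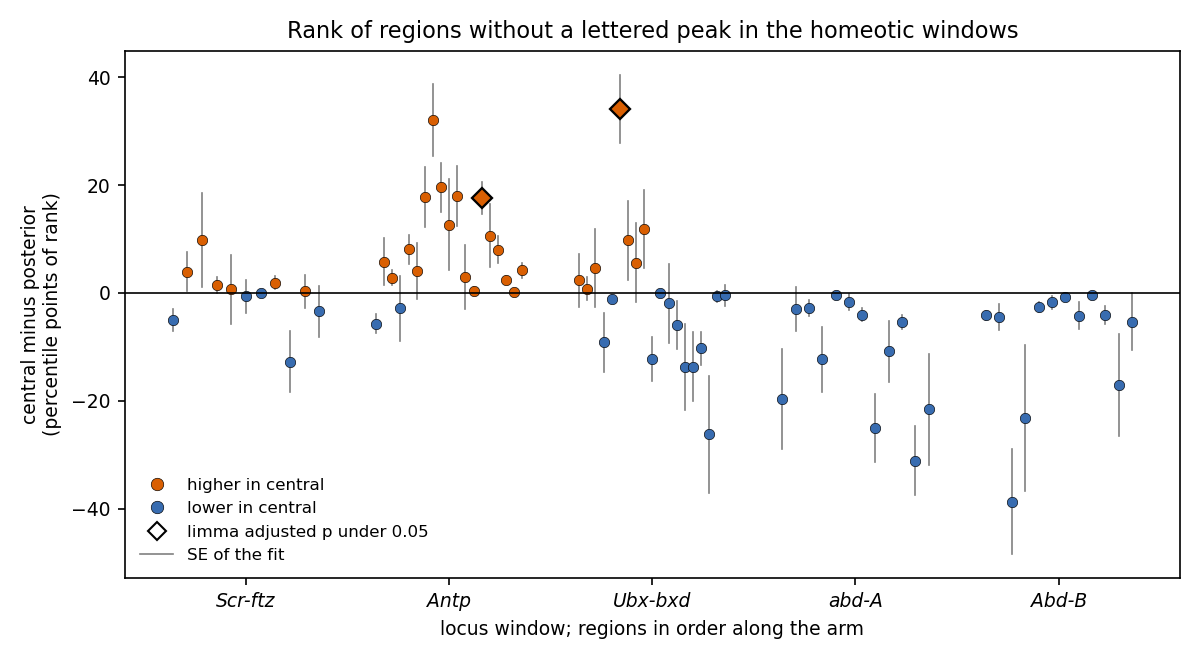
Central minus posterior difference of rank (percentile points, with the SE of the limma fit) for each region without a lettered peak in the homeotic windows, in order along 3R. Points above 0 are higher in central lists, and diamonds mark the 2 regions with an adjusted p under 0.05, in the Antp and Ubx-bxd windows.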

How the data were processed

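ATAC-seq peak lists of 8 tagged libraries were compared, 2 libraries for each of 4 domains. Per the submitters' processing notes, the authors used Bowtie2 2.2.9, SAMtools 1.3.1 and MACS2 2.1.1.2 on build dm3. Each deposited peak carries a score, which lies within 1 of 10 times the deposited -log10 q, and the authors' fold enrichment at the summit (signalValue). These are the authors' own values and were used only to rank and describe peaks. The smallest -log10 q was 2.00. Read depth is unknown, which leaves no basis for intervals or detection limits, and a shift of reads for the transposase is not given in the sources used here.

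Merging and tests used scipy 1.17.1 and numpy 2.4.6 under Python 3.11.15, figures used matplotlib 3.10.9, and ranks were fitted with limma 3.58.1 in R 4.3.3 (eBayes with trend, Benjamini-Hochberg, threshold 0.05). A region's strength in a list is the highest fold of its peaks there. Both steps were run on simulated data, and the outcome is not reported here. The simulated ranks held no effect of the kind of list, unlike the real ones. The exact permutation tests ran over all 70 arrangements of 4 against 4 libraries. Lists were cut to 16830 peaks by width or by fold, halved by either, merged at 50% overlap, or replaced by bins of 500 bp, and each library was left out in turn.

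The rule named, per direction, the 10 separated regions of highest median percentile, any 200 kb stretch with 5 or more separated regions, the 10 called regions of smallest p (5 where none was called), and the windows with the largest differences. The fit without lettered peaks was listed in advance as an alternative to the fit over all regions, and its own alternatives, as well as regions in at least 3 lists of a side and those of 1 domain, were added after seeing the data. Single regions in the windows of driver genes and in the homeotic windows were chosen after their values were seen. The groups, windows and rules were chosen with earlier results of these data known.

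Of 26 locus windows 25 were used: those whose place agreed within 20 kb with the spacing of the genes in a RefSeq table of a later build. The other 1 is not analysed here. No coordinate was converted. Replicate numbers were not treated as pairs in the main comparisons.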

Additional observations from a re-analysis of the deposited data

Results flagged for a closer look

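Among 62 groups of 4 lists, 1 list stood apart from the other 3 in 7, by Dixon's criterion at the 95% level. For continuous values chance flags about 1 group in 20, but percentages of few regions are often tied, so that rate does not hold here. In every flagged window except abd-A the other 3 lists had equal values. All values are the percent of a window's regions with a peak in the list. In the abd-A window D6 replicate 1 had 54.7%, below 84.9% to 88.7% in the other posterior lists. In the kni window D6 replicate 2 had 61.5%, below 76.9% in the other posterior lists. In the gt window D7 replicate 1 had 88.9%, above 83.3%, in the prd window D7 replicate 2 had 85.7%, above 78.6%, and in the hh window D7 replicate 2 had 100%, above 81.2%. Among central lists, D4 replicate 1 had 100% in the odd window, above 91.7%, and D4 replicate 2 had 90% in the sna window, below 100%. In windows of so few regions, 1 region more or less is enough to set a list apart, as in the gt, odd, prd and sna windows.

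In 4 windows both D7 lists lay above the central mean and both D6 lists below it, and this difference was not tested. D7 minus D6 was 30.0 percentage points in the Abd-B window, 26.5 in the cad window, 16.7 in the dpp window and 14.3 in the wg window. At equal list length the 4 values were 22.4, 26.67, 18.2 and 10.5 points, but only the cad window kept D6 and D7 on opposite sides of the central mean. In the Abd-B, dpp and wg windows D6 replicate 2 then lay above that mean. It had 68.4%, 81.8% and 84.2%, against central means of 63.2%, 65.9% and 80.3%.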

How the results depend on the processing

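The count of central-only regions was 71 at equal length by width, 117 at equal length by fold, 88 in the widest and 102 in the strongest 50% of each list, 400 with bins of 500 bp and 1281 within 1 naming style, where 2 lists a side must agree. The count of posterior-only regions was 31, 22, 3, 9, 4 and 89 under the same settings. At equal length, 636 and 213 regions were separated within 1 naming style. With each list left out, central-only regions numbered 284 to 441 and posterior-only regions 0 to 12, and at equal length 95 to 124 and 33 to 62. Rank calls among all regions were 36 when regions with a lettered peak were left out, and 0 to 9 with each list left out. Rank calls in that smaller set were 73 with normal scores, 14 with the list kind as a covariate, 16 with a replicate block and 0 to 40 with each list left out. The difference in list length was 2165.9 to 2865.9 peaks, and that in covered length 1.70 to 2.47 Mb, with each list left out. With a replicate block these were 2493.75 peaks and 2.12 Mb, both with an exact permutation p of 0.0556. The cad window was -10.3 to 3.92 points with each list left out and changed sign only without D7 replicate 2. The replicate block gave 0 Fisher calls (smallest adjusted p 0.841). Deviations of same-numbered lists correlated at -0.0571 to 0.0917, so replicate numbers were not treated as pairs. In D4, D5 and D7, however, replicate 1 was the list without lettered peaks and replicate 2 the list with them. The replicate block and the kind of list therefore largely coincide. The cause of these changes was not tested, except that leaving out lists loosens the separation rule by construction. Of the values of the main comparisons, 137 kept their direction and their side of the threshold, or stayed within 1.5 times for counts. Beside these, 46 moved further, 9 weakened and 1 reversed. The 137 include Fisher counts that stayed at 0, where a call in full lists required 3747 separated regions. For the single regions followed by rank, 97 values stayed the same and 107 weakened. Unknown read depth limits what absence from a list means.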
